A study of Mus musculus with 12 samples.

Results

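Uninjured intrinsically photosensitive retinal ganglion cells (ipRGCs) of the mouse were compared with uninjured ON-OFF direction-selective retinal ganglion cells (ooDSGCs). The comparison used 6 of the 12 libraries of a study of axon regeneration, namely all 3 libraries of the Opn4 line and all 3 of the HB9 line after sham surgery, chosen by their labels alone. The other 6 libraries, 3 per line, were made after optic nerve crush. Opn4 cells came from Opn4CreERT/+;R26-tdTomatof/f mice, in which tamoxifen activates a Cre recombinase made by melanopsin-expressing cells and so turns on the red reporter tdTomato. HB9 cells came from HB9:GFP mice, whose green reporter follows regulatory DNA of Mnx1 (also called Hb9). Both lines received tamoxifen at 0.124 mg per g body weight on 5 days from postnatal day 21, sham surgery at postnatal day 42, and tissue collection 3 days later. Each animal gave 10 fluorescent cells, picked singly from dissociated retina, and pools from 3 animals made 1 library of 30 cells. Cre and tdTomato belonged to the Opn4 line alone and GFP to the HB9 line alone, so mouse line, Cre, reporter and cell class cannot be told apart here. Sex and strain background are not given in the sources used here.

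Melanopsin, the photopigment of ipRGCs, signals through G proteins of the Gq family and phospholipase C to open Trpc cation channels, and ipRGCs drive circadian entrainment and the pupil reflex. ooDSGCs report the direction of moving edges at light onset and offset, and they take directional inhibition from starburst amacrine cells. Both are retinal ganglion cells, the neurons whose axons form the optic nerve. Levels are given as RPKM, which divides reads by gene length and by library size. Differences are log2(RPKM + 1), Opn4 minus HB9, with the standard error (SE) of a limma model, and a gene was counted as higher in a class when its adjusted p (Benjamini-Hochberg over all tested genes) was under 0.05.

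The 6 libraries had been scaled to between 15104446 and 24637164 reads and held between 15021 and 16461 genes at 1 RPKM or more. Opn4 libraries varied more among themselves, with a median SD per gene of 0.47 against 0.33 on the log2 scale. Correlations between libraries of a class ran from 0.876 to 0.922 for Opn4 cells and from 0.936 to 0.955 for HB9 cells, and between classes from 0.808 to 0.868. In a principal component analysis, component 1 (49.8% of the variance) had the Opn4 libraries between 50.5 and 98.1 and the HB9 libraries between -81.0 and -63.3. The next component (21.5%) set Opn4 replicate 1 (83.8) apart from Opn4 replicates 2 and 3 (-60.0 and -50.9). Without Opn4 replicate 1, 1849 genes were past the threshold, 1595 of them among the 2148 of the full comparison. Sex-linked genes varied within each class. The mean log2 value of 5 such genes was 2.73, 3.21 and 0.67 in Opn4 libraries and 0.67, 1.85 and 2.56 in HB9 libraries. The classes overlapped (exact permutation test, two-sided p = 0.6, smallest possible 0.1).

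Transcripts of other retinal cells were present, with rods the most abundant. The mean log2 value of 17 rod genes was 6.14, 5.63 and 4.74 in the Opn4 libraries and 4.81, 3.79 and 3.39 in the HB9 libraries, which overlap (exact permutation test, two-sided p = 0.2, smallest possible 0.1). Their summed level was 1487 to 2788 RPKM against 767 to 1135 RPKM. Past the threshold were 2 of the 17, Cngb1 and Cnga1, a share of 11.8% that equals the 11.8% of all tested genes. The list median was 1.40 on the Opn4 side. The count depended on the setting: 10 with a replicate block, 9 without HB9 replicate 1 and 5 without Opn4 replicate 3. It was 1 in a voom fit and without Opn4 replicate 1 or HB9 replicate 2 or 3. No rod gene was called higher in HB9 cells in any setting. Cnga1 missed it in a voom fit (0.0638) and without Opn4 replicate 1 (0.0521) or HB9 replicate 2 (0.0572) or 3 (0.0613). With the rod mean as a covariate, 762 genes remained past the threshold (369 higher in Opn4 and 393 in HB9), 727 of them among the 2148. That covariate itself differs with class, and the part of rod RNA in the class differences was not tested. The cone list was at 3.50 in Opn4 replicate 1 and between 0.75 and 1.58 in the other libraries. Bipolar genes were level (mean 3.15 and 3.16), and amacrine genes were at 2.01 ± 0.35 and 1.38 ± 0.43 (SD, n = 3; exact permutation p = 0.2). Müller cell and astrocyte genes were at 2.49 ± 0.136 and 2.10 ± 0.221, and vascular genes at 0.41 ± 0.141 and 0.16 ± 0.0278, neither list overlapping (exact permutation p = 0.1 each, the smallest possible). Microglia genes summed to 31.6 to 58.5 RPKM in the Opn4 libraries and 38.9 to 63.1 RPKM in the HB9 libraries, and pigment epithelium genes to 0.988 to 19.2 RPKM and 0.397 to 3.24 RPKM, so both lists had members above 0. Some of the defining markers had no reads. Gfap, Sox9, Tmem119, C1qb, Cdh5, Rpe65 and Ttr had 0 RPKM in all 6 libraries. The hemoglobin genes Hba-a1 and Hba-a2 were at 0 to 0.115 RPKM in Opn4 libraries and 0.3 to 11.2 RPKM in HB9 libraries, without passing the threshold. Hba-a2 passed it without HB9 replicate 2 (adjusted p = 0.0411) or HB9 crush replicate 2 (0.0469), and its reads may be shared with its near-identical copy.

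The cells carried the markers of their labelled class. Melanopsin (Opn4) was at 1701, 1255 and 1773 RPKM in the Opn4 libraries and at 20.2, 4.88 and 0.158 RPKM in the HB9 libraries. Eomes, a T-box factor that maintains ipRGCs, was at 422, 322 and 408 RPKM against 1.68, 1.19 and 0 RPKM. Mnx1 was at 0, 0.144 and 0 RPKM in the Opn4 libraries and 20.9, 41.7 and 34.0 RPKM in the HB9 libraries. Cartpt, a peptide precursor that marks ooDSGCs, was the most abundant of the 4, at 4731, 5481 and 5935 RPKM in HB9 cells, while Opn4 cells still held 177, 134 and 137 RPKM. None of these 4 genes overlapped between the groups, as was so for 30.7% of all tested genes. Of 15 tested ipRGC markers, 13 were higher in Opn4 cells and none in HB9 cells (86.7%, against 5.82% of all 18269 tested genes higher in Opn4). The other 2 were Plcb4, which codes for a phospholipase C and was level at 96.1 to 185 RPKM against 119 to 162 RPKM, and Lmo2, which passed without Opn4 replicate 1 (adjusted p = 0.0153) and with library weights (0.0398). Of 15 tested ooDSGC markers, 8 were higher in HB9 cells (5.93% of all tested genes were) and 1, the cannabinoid receptor gene Cnr1, was higher in Opn4 cells (2.55 ± 0.46, adjusted p = 0.00271). The call for Cnr1 ended with the rod covariate (adjusted p = 0.115), and 2 markers were higher in Opn4 cells without Opn4 replicate 3. Among those higher in HB9 cells were Pcdh7 (-5.77), the type II cadherin Cdh6 (-4.97) and the calcium buffer Calb2, which was at 6148, 5553 and 6528 RPKM against 561, 462 and 300 RPKM. These marker lists were drawn up with results of these libraries known, so their direction is a check of identity and no independent evidence.

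**Figure D1:**
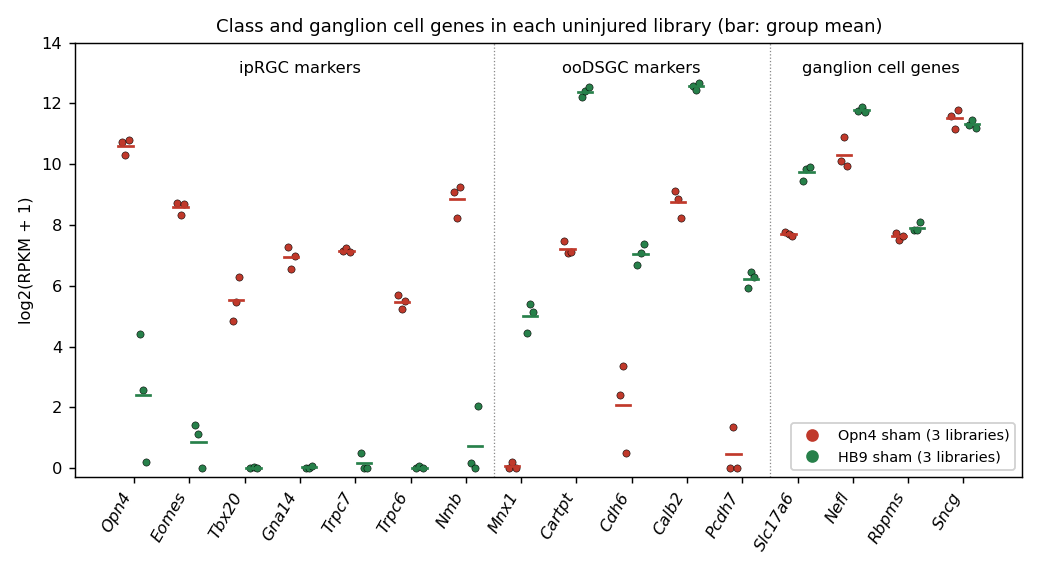
Level of 16 class and ganglion cell genes, log2(RPKM + 1) on the vertical axis, in the 3 Opn4 sham and 3 HB9 sham libraries (points, bars for group means). The 7 ipRGC markers and the 5 ooDSGC markers shown, picked from lists of 15 tested genes each, do not overlap between the classes. Over the whole lists, 13 of 15 ipRGC and 10 of 15 ooDSGC markers did not overlap in either direction, against 30.7% of all tested genes. Rbpms and Sncg lie close together in both classes.

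Both lines are labelled through DNA of the genes whose RNA separates them, and the sequence before the RefSeq start of each is shown for that reason. The deposited table places Opn4 at chromosome 14, 34590618 to 34600142, minus strand, and Mnx1 at chromosome 5, 29473038 to 29478519, minus strand (mm10). The 250 bases before each RefSeq transcript start (GRCm38.p6) follow, 5′ to 3′ on the gene's strand, with CpG dinucleotides in capitals. They lie at chr14:34600143-34600392 and chr5:29478471-29478720. The deposited table starts Mnx1 farther upstream than RefSeq does, so the last 49 bases of its window lie inside the gene as the table measures it.
Opn4: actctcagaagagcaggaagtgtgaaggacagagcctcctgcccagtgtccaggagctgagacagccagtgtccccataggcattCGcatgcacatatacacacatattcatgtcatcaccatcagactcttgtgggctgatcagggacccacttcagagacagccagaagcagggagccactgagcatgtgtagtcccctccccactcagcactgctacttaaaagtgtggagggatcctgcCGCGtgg
Mnx1: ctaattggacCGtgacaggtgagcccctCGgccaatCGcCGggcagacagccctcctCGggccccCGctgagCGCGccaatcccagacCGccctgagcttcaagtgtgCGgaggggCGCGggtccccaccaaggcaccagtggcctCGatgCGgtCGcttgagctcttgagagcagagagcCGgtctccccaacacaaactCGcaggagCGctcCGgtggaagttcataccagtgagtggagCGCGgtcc
The Opn4 window had 54.8% G and C and 3 CpG, and 71.0% of 32841 RefSeq promoters of that length had at least as many CpG. The Mnx1 window had 66.4% G and C and 21 CpG, a number reached by 16.4% of promoters. AGGTGTGA, a sequence bound by T-box factors, was searched on both strands and was in neither window. It was in 1.12% of all 32841 promoters, in 0.499% of 801 promoters of genes higher in Opn4 cells and in 0.342% of 878 promoters of genes higher in HB9 cells. Tested genes as a whole had it in 0.667% of 13336 promoters.

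The classes differed at 2148 of 18269 tested genes (11.8%), 1064 higher in Opn4 cells and 1084 higher in HB9 cells. Differences over 4-fold were found for 485 and 364 genes, over 16-fold for 95 and 58, and over 64-fold for 17 and 9. The libraries of the classes did not overlap for 2130 of the 2148 genes (99.2%), against 30.7% of all tested genes. The calls were made on these same libraries, so this separation follows largely from the selection and is no further evidence for them. In 48 of the genes higher in Opn4 cells and 77 of those higher in HB9 cells, the other class had no read in any library. For 3591 genes that were not past the threshold, the 95% interval of the difference lay within 2-fold in both directions. A further 12530 genes (68.6%) met neither condition, so a difference of 2-fold or more could not be seen or set aside for them at this spread. On simulated data with the same spread, 50 genes were changed at each fold. Called were 12% of those changed 2-fold, 52% at 4-fold, 72% at 8-fold and 82% at 16-fold. In the same data 37 unchanged genes were also called, a larger share of the simulated calls than the adjusted p threshold implies. The share of false calls among the 2148 genes was not tested. The count of 2148 fell to 1505, 1348 and 1401 without HB9 replicate 1, 2 or 3.

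**Figure D2:**
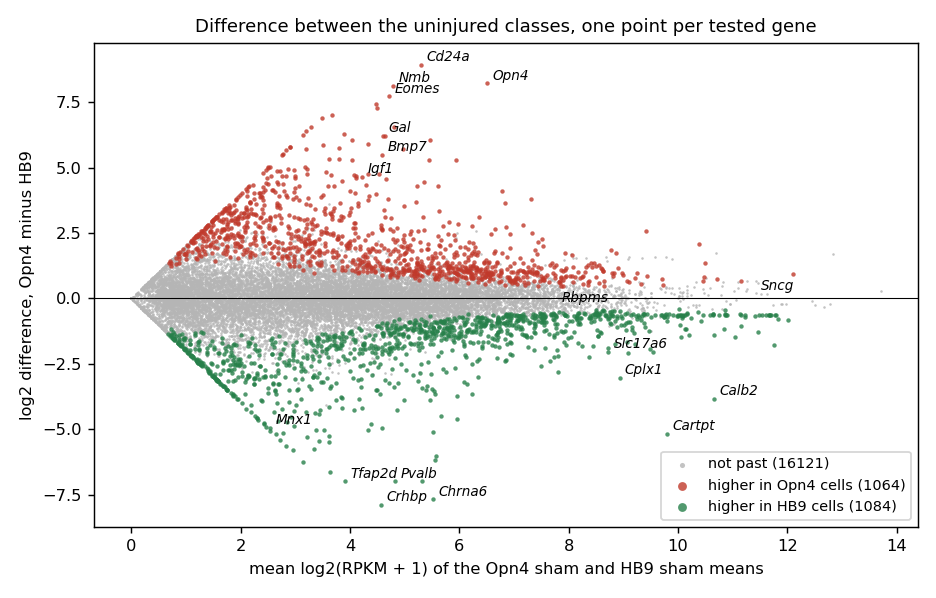
Log2 difference between the uninjured classes (vertical axis, Opn4 minus HB9) against the mean level (horizontal axis, log2(RPKM + 1)) for 18269 tested genes, with 1064 higher in Opn4 cells in red and 1084 higher in HB9 cells in green. Cartpt and Calb2 combine a high level with a large difference, and Sncg and Rbpms lie near 0.

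Transcription factors of several families differed. Among T-box factors, Eomes (7.73 ± 0.32, adjusted p = 5.23e-08) and Tbx20 were higher in Opn4 cells and Tbx2 in HB9 cells. Tbx20 was at 27.5, 43.0 and 76.4 RPKM against at most 0.0295 RPKM (5.51 ± 0.41, adjusted p = 4.07e-06). Tbx2 differed by -2.07 ± 0.49 (adjusted p = 0.0151), a call that ended with the rod covariate (0.268) and without Opn4 replicate 3 (0.0505), HB9 replicate 1 (0.0556) or HB9 replicate 3 (0.0634). Of 33 tested homeodomain, POU and LIM genes, 2 were higher in Opn4 cells and 11 in HB9 cells. Called were 39.4%, against 11.8% of all tested genes, with a median of -0.17 against 0.01. The list count fell to 8 without Opn4 replicate 3 (1 and 7) or HB9 replicate 1 (2 and 6). It was also 8 without HB9 replicate 2 or replicate 3 (1 and 7 each), and with the rod covariate it was 1 and 6. It was 1 and 9 without Opn4 replicate 2, where the median was 0.03, and 1 and 10 without HB9 crush replicate 2. The POU factors Pou4f1 and Pou4f3 were both low in Opn4 cells. Pou4f1 was at 1.27, 5.50 and 4.54 RPKM against 79.2, 88.2 and 68.8 RPKM, and Pou4f3 at 0 to 0.0281 RPKM against 15.4 to 28.4 RPKM. Barhl2 (-5.28 ± 0.48, adjusted p = 1.71e-05) and the LIM factor Isl2 (-4.27 ± 0.68, adjusted p = 0.00127) went the same way. Isl1, the close relative of Isl2, was level at 72.6, 61.6 and 122 RPKM against 56.8, 87.4 and 87.9 RPKM (0.11 ± 0.27). Pou2f2 was higher in Opn4 cells (3.25 ± 0.43, adjusted p = 0.000328).

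Among 41 tested basic helix-loop-helix, zinc finger and nuclear receptor genes, 4 were higher in Opn4 cells and 8 in HB9 cells. The share called was 29.3%, against 11.8% of all tested genes (median -0.33). With the rod covariate the counts were 3 and 5. Tfap2d, an AP-2 factor, was at 162, 157 and 185 RPKM in HB9 cells and at 0, 1.22 and 0.0714 RPKM in Opn4 cells (-6.98 ± 0.36, adjusted p = 4e-07). Also higher in HB9 cells were Rxrg, a retinoid receptor, and Thrb, a thyroid hormone receptor that the cone list holds too. Rxrg was at 84.8, 60.7 and 102 RPKM against 0, 5.07 and 0 RPKM, and Thrb at 8.83, 9.98 and 10.9 RPKM against at most 0.972 RPKM. Runx1 was at 3.89 to 4.75 RPKM in HB9 cells and at most 0.00593 RPKM in Opn4 cells. The early B-cell factors Ebf3 (3.29 ± 0.41, adjusted p = 0.000218) and Ebf2 (2.46 ± 0.50, adjusted p = 0.00608) were higher in Opn4 cells. So was Klf6, a Krüppel-like factor, at 99.9, 87.4 and 108 RPKM against 24.8, 20.6 and 27.0 RPKM (1.99 ± 0.21, adjusted p = 6.39e-05).

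The melanopsin signalling pathway was represented in Opn4 cells at several steps. Gna14, a Gq-family alpha subunit, was at 153, 93.2 and 126 RPKM in Opn4 cells and at most 0.0595 RPKM in HB9 cells (6.90 ± 0.37, adjusted p = 4.71e-07). The channel genes Trpc7 and Trpc6 followed: Trpc7 was at 141, 149 and 136 RPKM against 0.4, 0 and 0 RPKM, and Trpc6 at 51.3, 36.9 and 44.1 RPKM against at most 0.0402 RPKM. Trpc7 thus had the higher level per length of the pair in each Opn4 library. Prkcd, a protein kinase C, was at 232 to 311 RPKM against 0.483 to 7.32 RPKM, and Rasgrp1, an activator of Ras that diacylglycerol recruits, at 217, 289 and 313 RPKM against 10.8, 6.72 and 2.67 RPKM. In HB9 cells the phospholipase gene Plcb1 was higher, at 56.6, 47.0 and 55.8 RPKM against 3.45, 1.93 and 3.53 RPKM (-3.79 ± 0.46, adjusted p = 0.000183). Plcb4, by contrast, did not pass (0.02 ± 0.26, 95% interval -0.53 to 0.58). Over the list of 30 tested genes of this pathway, 8 were higher in Opn4 cells and 5 in HB9 cells. This share of 43.3% compares with 11.8% of all tested genes (median 0.51). The HB9 count was 3 without Opn4 replicate 1 or 2 or HB9 replicate 1, and 2 without HB9 replicate 3 or with the rod covariate, while 8 or 9 were higher in Opn4 cells in each of these.

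Peptides and hormones gave some of the widest gaps. Neuromedin B (Nmb) was at 548, 298 and 605 RPKM in Opn4 cells and 0.112, 0 and 3.11 RPKM in HB9 cells (8.13 ± 0.60, adjusted p = 3.97e-06). PACAP (Adcyap1), a transmitter of ipRGCs, was at 616, 442 and 769 RPKM against 38.2, 49.9 and 38.2 RPKM (3.80 ± 0.23, adjusted p = 1.24e-06). Natriuretic peptide B (Nppb) was at 114, 79.2 and 241 RPKM against 3.88, 0 and 0 RPKM, and galanin (Gal) at 171, 155 and 339 RPKM against 19.7, 0.057 and 0 RPKM. All 4 were named for their differences, and none overlapped between the classes, as was so for 15.5% of all tested genes in this direction. With the rod covariate Nppb (adjusted p = 0.0622) and Gal (0.247) missed the threshold, and Gal also did in a voom fit of recovered reads (0.239). Tac2, a tachykinin precursor, was at 440 and 226 RPKM in Opn4 replicates 1 and 3 but at 0 RPKM in replicate 2 and in all HB9 libraries, and did not pass (adjusted p = 0.155). Without Opn4 replicate 2 it passed (0.0212). HB9 cells were higher in Cartpt and in Crhbp, which binds corticotropin-releasing hormone and was at 325, 354 and 413 RPKM against 0.0259, 0 and 2.54 RPKM. In all, 8 of 33 tested genes were higher in Opn4 cells and 6 in HB9 cells (42.4%, against 11.8% of all tested genes). The median was 0.67, and the counts were 5 and 3 with the rod covariate. The median rested on single libraries: it was 0.09 without Opn4 replicate 1, 0.16 without Opn4 replicate 2 and 0.13 with the rod covariate.

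Growth factors and their receptors differed in both directions. Bone morphogenetic protein 7 (Bmp7) was at 168, 144 and 167 RPKM against 3.38, 2.65 and 1.82 RPKM (5.50 ± 0.46, adjusted p = 9.93e-06), and Bmp6 at 47.8, 39.0 and 88.3 RPKM against 0 in all HB9 libraries. Counting 3 reads over the HB9 group as its floor, Bmp6 was at least 3236-fold higher, a bound for read counting only. Insulin-like growth factor 1 (Igf1) was narrow in Opn4 cells, at 90.8, 95.1 and 93.2 RPKM, against 7.25, 3.00 and 0.569 RPKM in HB9 cells. The neurotrophin receptor gene Ntrk3 was at 16.7, 29.2 and 18.3 RPKM against 0.364 to 2.13 RPKM (3.45 ± 0.42, adjusted p = 0.000177). HB9 cells had more Fgf12, an intracellular partner of sodium channels, at 412, 494 and 539 RPKM against 91.3, 112 and 111 RPKM, and more Fgf9 (-1.99 ± 0.31, adjusted p = 0.000985). Of 33 tested genes in this list, 5 were higher in Opn4 cells and 3 in HB9 cells. Called were 24.2%, against 11.8% of all tested genes (median 0.39).

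Receptors for peptides and amines differed in both directions, with 4 of 36 higher in Opn4 cells and 8 in HB9 cells. The share called was 33.3%, against 11.8% of all tested genes (median 0.35). The counts were 3 and 5 without HB9 replicate 3, and 1 and 3 with the rod covariate, where the median was -0.43. Adra2a, the alpha-2A adrenergic receptor, was at 36.7, 29.1 and 26.8 RPKM in Opn4 cells and at most 0.0234 RPKM in HB9 cells (4.97 ± 0.59, adjusted p = 0.000155). Somatostatin receptors split by subtype. Sstr4 was at 25.0, 24.5 and 21.9 RPKM in HB9 cells with no read in Opn4 cells, which puts it at least 1041-fold lower there. Sstr2 was at 15.2, 13.6 and 3.21 RPKM in Opn4 cells with no read in HB9 cells (3.32 ± 0.88, adjusted p = 0.0274), but its call ended in 8 of the alternatives, with adjusted p between 0.0735 and 0.202. Those 8 were a pseudocount of 5, no filter, the rod covariate (0.202), and leaving out Opn4 replicate 1 (0.0889) or 2 (0.0824) or HB9 replicate 1 (0.0757), 2 (0.0783) or 3 (0.0777). The adenosine receptor gene Adora2a had no read in Opn4 cells and 6.68, 10.6 and 13.4 RPKM in HB9 cells, at least 510-fold lower in Opn4 cells.

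Nicotinic acetylcholine receptor genes differed by subunit. Chrna6 was at 686, 693 and 593 RPKM in HB9 cells against 0.105, 2.94 and 6.73 RPKM in Opn4 cells, and Chrnb3 at 341, 474 and 549 RPKM against 0.171, 12.3 and 1.86 RPKM. Chrna3 was at 203, 259 and 352 RPKM against 23.7, 15.9 and 22.1 RPKM, so it was present in both classes and higher in HB9 cells (-3.64 ± 0.30, adjusted p = 8.44e-06). Chrna4 went the other way, at 79.0, 59.0 and 81.0 RPKM in Opn4 cells and 10.1, 10.5 and 0.285 RPKM in HB9 cells (3.74 ± 0.67, adjusted p = 0.00274, and 0.131 with the rod covariate). Chrnb2, the usual partner of both alpha subunits, was at 85.5 to 128 RPKM against 54.2 to 67.4 RPKM and missed the threshold (0.77 ± 0.25, adjusted p = 0.0728), but passed under voom (0.0426) and without HB9 crush replicate 1 (0.04995). Over the list, 1 of 9 tested subunits was higher in Opn4 cells and 4 in HB9 cells (55.6%, against 11.8% of all tested genes). The list median was -2.50, and the counts were 0 and 3 with the rod covariate. The median was -1.40 without Opn4 replicate 1 and -0.89 with the rod covariate, and 2 were higher in Opn4 cells without HB9 crush replicate 1. Chrnb3 and Chrna6 are neighbours on chromosome 8, 27368711 to 27413944, with 0 other protein-coding genes between them in this 45.2 kb. Chrna3 and Chrnb4 lie together on chromosome 9, 54980880 to 55048544, with Chrna5. Chrnb4 was also higher in HB9 cells (-2.50 ± 0.46, adjusted p = 0.00335, and 0.0628 with the rod covariate), while Chrna5, with no read in Opn4 cells and 0, 1.62 and 5.59 RPKM in HB9 cells, did not pass (adjusted p = 0.227). Lypd6b, which codes for a protein of a family that modulates these receptors, was higher in HB9 cells at 34.9, 32.6 and 64.1 RPKM against 0, 0 and 2.09 RPKM.

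For fast transmission by glutamate, GABA and glycine, 5 of 40 tested subunits were higher in Opn4 cells and 12 in HB9 cells. This share of 42.5% compares with 11.8% of all tested genes (median -0.53). With the rod covariate the counts were 2 and 7. The Opn4 count was 3 without Opn4 replicate 3 or HB9 replicate 1. The AMPA receptor gene Gria1 was at 50.9, 49.3 and 71.5 RPKM in Opn4 cells and 2.75, 2.04 and 1.20 RPKM in HB9 cells (4.30 ± 0.39, adjusted p = 1.58e-05). The kainate receptor gene Grik1 was the reverse, at 0, 2.34 and 0.163 RPKM against 20.0, 57.8 and 38.5 RPKM (-4.54 ± 0.58, adjusted p = 0.000242). Gabra4, Gabra5 and Gabra2, which code for alpha subunits of GABA-A receptors, were higher in HB9 cells. Gabra4 was at 38.9, 46.2 and 39.8 RPKM against at most 0.0113 RPKM, and Gabra5 at 31.1, 27.4 and 21.5 RPKM against at most 1.42 RPKM. Gabra2 was at 107, 81.0 and 165 RPKM against 0, 15.5 and 1.61 RPKM (-5.02 ± 1.01, adjusted p = 0.00584), with 0.0665 under the rod covariate and 0.0816 under voom.

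**Figure D3:**
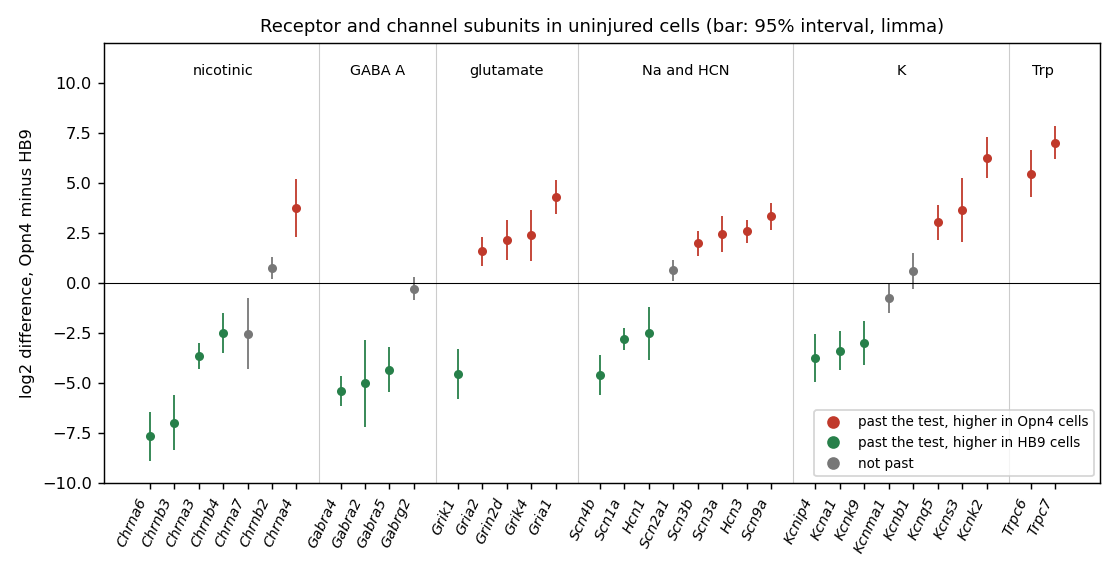
Log2 difference between the uninjured classes (vertical axis, Opn4 minus HB9) for receptor and channel subunits, with 95% intervals from limma and colour for genes past adjusted p 0.05. Chrna6 at -7.67 and Trpc7, the highest point, mark the ends, and within the nicotinic, glutamate, sodium and potassium groups subunits lie on both sides of 0.

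Sodium channels differed by subunit. Of 29 tested sodium, calcium and HCN channel genes, 5 were higher in Opn4 cells and 6 in HB9 cells. Called were 37.9%, against 11.8% of all tested genes (median -0.01). Scn1a was at 128, 136 and 161 RPKM in HB9 cells and 13.3, 25.9 and 20.9 RPKM in Opn4 cells (-2.80 ± 0.25, adjusted p = 1.3e-05). The beta subunit gene Scn4b was also higher in HB9 cells, with 46.3, 18.6 and 13.9 RPKM against no read in Opn4 cells. Opn4 cells had more of the alpha subunit Scn9a (29.9, 45.3 and 32.4 RPKM against 2.55, 2.32 and 3.01 RPKM), more Scn3a and more of the beta subunit Scn3b (147, 126 and 131 RPKM against 31.8, 25.9 and 45.6 RPKM). Scn2a1 had a mean on the Opn4 side that was not past the threshold (0.63 ± 0.24, adjusted p = 0.114). Hcn3, a channel opened by hyperpolarization, was at 64.2, 70.5 and 64.5 RPKM in Opn4 cells against 13.2, 11.8 and 6.96 RPKM (2.57 ± 0.26, adjusted p = 3.44e-05).

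Of 48 tested potassium channel genes, 6 were higher in Opn4 cells and 13 in HB9 cells (39.6%, against 11.8% of all tested genes). The median was -0.70, and the counts were 3 and 6 with the rod covariate. Kcnk2, a background channel also called TREK-1, was at 88.6, 61.8 and 80.3 RPKM in Opn4 cells and at most 0.023 RPKM in HB9 cells (6.26 ± 0.47, adjusted p = 4.11e-06). Kcnq5, an M-current subunit, was at 6.60, 10.9 and 8.47 RPKM against at most 0.586 RPKM. HB9 cells had more Kcna1, a low-threshold Kv1 channel, at 58.0, 60.7 and 57.3 RPKM against 5.79, 7.03 and 2.41 RPKM (-3.39 ± 0.45, adjusted p = 0.000336). They also had more Kcnip4, a partner of Kv4 channels, at 258, 210 and 212 RPKM against 14.3, 18.1 and 15.6 RPKM.

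Calcium buffers separated the classes at high levels. Parvalbumin (Pvalb) was at 582, 313 and 177 RPKM in HB9 cells and 0, 1.34 and 5.76 RPKM in Opn4 cells (-6.99 ± 0.74, adjusted p = 5.57e-05). Calretinin (Calb2) differed by -3.82 ± 0.28 (adjusted p = 3.55e-06) and was present in both. Among neuronal calcium sensors of one family, Hpcal1 was higher in HB9 cells (-3.88 ± 0.57, adjusted p = 0.000671) and Hpcal4 in Opn4 cells (4.49 ± 0.59, adjusted p = 0.00032). In all, 2 of 22 tested genes were higher in Opn4 cells and 6 in HB9 cells (36.4%, against 11.8% of all tested genes). The median was -0.54. Only 1 was higher in Opn4 cells without Opn4 replicate 1 or 2, HB9 replicate 1, 2 or 3, or HB9 crush replicate 1. Regulators of G proteins and of small G proteins showed the same division of relatives. Rasd1 was at 24.7, 136 and 69.1 RPKM in Opn4 cells and 5.39, 3.00 and 3.84 RPKM in HB9 cells, whereas Rasd2 was at 7.41, 15.9 and 12.6 RPKM against 263, 340 and 318 RPKM. Rgs17 was higher in Opn4 cells (3.02 ± 0.39, adjusted p = 0.000277) and Rgs8 in HB9 cells (-4.20 ± 0.61, adjusted p = 0.000672). Over 25 tested regulators 4 were higher in Opn4 cells and 7 in HB9 cells (44%, against 11.8% of all tested genes). Their median was -0.57, and the counts were 4 and 3 with the rod covariate. Without HB9 replicate 1 or 2, the counts were 4 and 4.

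Axon guidance genes were called in both directions, 12 of 53 higher in Opn4 cells and 7 in HB9 cells. The share called was 35.8%, against 11.8% of all tested genes (median -0.14). With the rod covariate 4 and 3 were called. The secreted ligand Sema3e was at 61.8, 75.8 and 93.3 RPKM in HB9 cells and at most 0.0115 RPKM in Opn4 cells (-6.25 ± 0.35, adjusted p = 6.13e-07). The membrane semaphorin Sema6a was at 45.4, 47.1 and 55.8 RPKM against 7.67, 11.4 and 6.85 RPKM. Opn4 cells had more of the netrin receptor Unc5d, at 23.9, 40.8 and 31.4 RPKM against 1.56, 1.78 and 0 RPKM, and of the semaphorin receptor Plxnc1 (3.35 ± 0.46, adjusted p = 0.000412). The Nogo receptor relative Rtn4rl2 had no read in Opn4 cells and 29.9, 26.2 and 43.8 RPKM in HB9 cells, at least 976-fold lower in Opn4 cells (adjusted p = 0.0013, and 0.0512 with the rod covariate).

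Cell adhesion genes differed in both directions. Cd24a, a surface glycoprotein, had the largest difference of all called genes on the Opn4 side, at 926, 708 and 1007 RPKM against 4.69, 0 and 0 RPKM (8.93 ± 0.52, adjusted p = 6.65e-07). Gldn (gliomedin) was at 304, 248 and 333 RPKM against 0.631, 1.92 and 0 RPKM, and the L1 family member Chl1 at 83.7, 115 and 82.5 RPKM against at most 0.023 RPKM. The receptor phosphatase Ptprm was at 215, 221 and 245 RPKM against 3.60, 2.98 and 3.44 RPKM, the narrowest spread of these (5.72 ± 0.24). On the HB9 side, Cntn4 (contactin 4) was at 48.6, 43.8 and 65.4 RPKM against 15.1, 4.05 and 2.09 RPKM. Of 55 tested immunoglobulin and leucine-rich repeat genes, 36.4% were called, against 11.8% of all tested genes (median 0.42). The counts were 15 higher in Opn4 cells and 5 in HB9 cells. That became 11 and 3 without Opn4 replicate 2, 10 and 3 without Opn4 replicate 3, and 7 and 2 with the rod covariate. Without HB9 replicate 1, 2 or 3 it was 13 and 3, 9 and 4, and 12 and 2. Of 26 tested cadherins and protocadherins, 4 were higher in Opn4 cells and 8 in HB9 cells (46.2%, against 11.8% of all tested genes). With the rod covariate the counts were 3 and 5. The median of these genes was -0.30. The median was -0.05 without Opn4 replicate 3 and -0.03 without HB9 replicate 3. Cdh13 was at 27.3, 31.6 and 24.6 RPKM in Opn4 cells and 0.672, 0.696 and 0.641 RPKM in HB9 cells, and Pcdh19 at 52.9, 33.2 and 40.0 RPKM against 4.26, 3.47 and 3.69 RPKM. Pcdh7 was at 59.9, 86.6 and 77.2 RPKM in HB9 cells and 0.00704, 1.54 and 0.0075 RPKM in Opn4 cells.

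Of 41 tested matrix and protease genes, 10 were higher in Opn4 cells and 9 in HB9 cells. The share called was 46.3%, against 11.8% of all tested genes (median 0.26). The matrix metalloproteinase Mmp9 was at 115, 114 and 141 RPKM in HB9 cells and 0, 0 and 0.986 RPKM in Opn4 cells (-6.62 ± 0.62, adjusted p = 2.21e-05). The tissue inhibitor of metalloproteinases Timp2 was at 391, 369 and 375 RPKM in Opn4 cells and 38.3, 62.3 and 61.9 RPKM in HB9 cells (2.81 ± 0.22, adjusted p = 4.93e-06). Annexin A2 (Anxa2) was at 58.3, 60.6 and 53.1 RPKM in HB9 cells and at most 0.142 RPKM in Opn4 cells. Among structural genes, the collagens Col9a1 (78.4, 85.5 and 93.9 RPKM against at most 2.29 RPKM) and Col5a1 and the heparan sulfate carrier Sdc2 (90.8, 101 and 135 RPKM against 7.13, 5.89 and 13.4 RPKM) were higher in Opn4 cells. Cbln4, a synaptic organizer, and Spon1, a secreted adhesion protein, were higher in HB9 cells (-4.76 ± 0.49 and -4.67 ± 0.60).

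Genes of transmitter release were among the most abundant of those that differed. Slc17a6, which loads glutamate into vesicles, was at 703, 918 and 964 RPKM in HB9 cells and 216, 208 and 199 RPKM in Opn4 cells (-2.03 ± 0.19, adjusted p = 1.84e-05). Complexin 1 (Cplx1) was at 1543, 1327 and 1327 RPKM against 201, 178 and 134 RPKM, and Snap25 at 3146, 3395 and 3328 RPKM against 1477, 1620 and 1622 RPKM. The calcium sensors of release separated by isoform: Syt2 was higher in HB9 cells at 68.8, 72.3 and 76.4 RPKM against 6.24, 2.54 and 1.26 RPKM, while Syt5 was higher in Opn4 cells at 378, 395 and 371 RPKM against 63.9, 70.4 and 63.7 RPKM. Syt17 (4.62 ± 0.38) and Rab3b, a vesicle GTPase at 211, 112 and 155 RPKM against 4.27, 0.323 and 1.43 RPKM, were also higher in Opn4 cells. The vesicle SNARE gene Vamp1 was at 224 to 247 RPKM in HB9 cells and 4.76 to 20.2 RPKM in Opn4 cells. Over 40 tested genes, 7 were higher in Opn4 cells and 12 in HB9 cells (47.5%, against 11.8% of all tested genes). Their median was -0.16, and the counts were 3 and 7 with the rod covariate.

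Among metabolic genes, those of glycolysis that passed were all higher in HB9 cells. Of 21 tested genes of glycolysis, 14 were higher in HB9 cells and none in Opn4 cells (66.7%; median -0.70), 12 of them with the rod covariate. Pkm, the last enzyme of the pathway, was at 2204, 1699 and 1521 RPKM in Opn4 cells and 4199, 4259 and 4754 RPKM in HB9 cells (-1.30 ± 0.14, adjusted p = 5.11e-05). The lactate dehydrogenase subunit Ldhb was at 186, 172 and 109 RPKM against 828, 737 and 618 RPKM, and the aldolase Aldoc at 681, 323 and 218 RPKM against 1544, 1608 and 1376 RPKM. Pfkl, the liver form of phosphofructokinase, was at 202, 231 and 249 RPKM against 555, 609 and 662 RPKM, while the muscle form Pfkm did not pass (-0.40 ± 0.16, adjusted p = 0.15). Pgam1 (-1.47 ± 0.12) shares sequence with the pseudogene Pgam1-ps2 (-1.40 ± 0.11), so reads could have been split between them and its level is uncertain. Of 34 tested genes of oxidative phosphorylation, 6 were higher in HB9 cells and none in Opn4 cells (17.6%, near the 11.8% of all tested genes; median -0.44). That count was 2 without HB9 replicate 1 or replicate 2, 3 with the rod covariate, with quantile normalization or with no filter, and 12 with library weights. Among its members Atp5b was at 1154, 1124 and 985 RPKM in HB9 cells against 787, 614 and 616 RPKM (-0.70 ± 0.15, adjusted p = 0.00987). Of 26 tested genes of cholesterol and fatty acid synthesis, 7 were higher in Opn4 cells and none in HB9 cells (26.9%; median 0.53). With the rod covariate 0 of them were called, and 2 to 4 were called without Opn4 replicate 2 (4) or 3 (4), or without HB9 replicate 1 (3), 2 (4) or 3 (2).

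**Figure D4:**
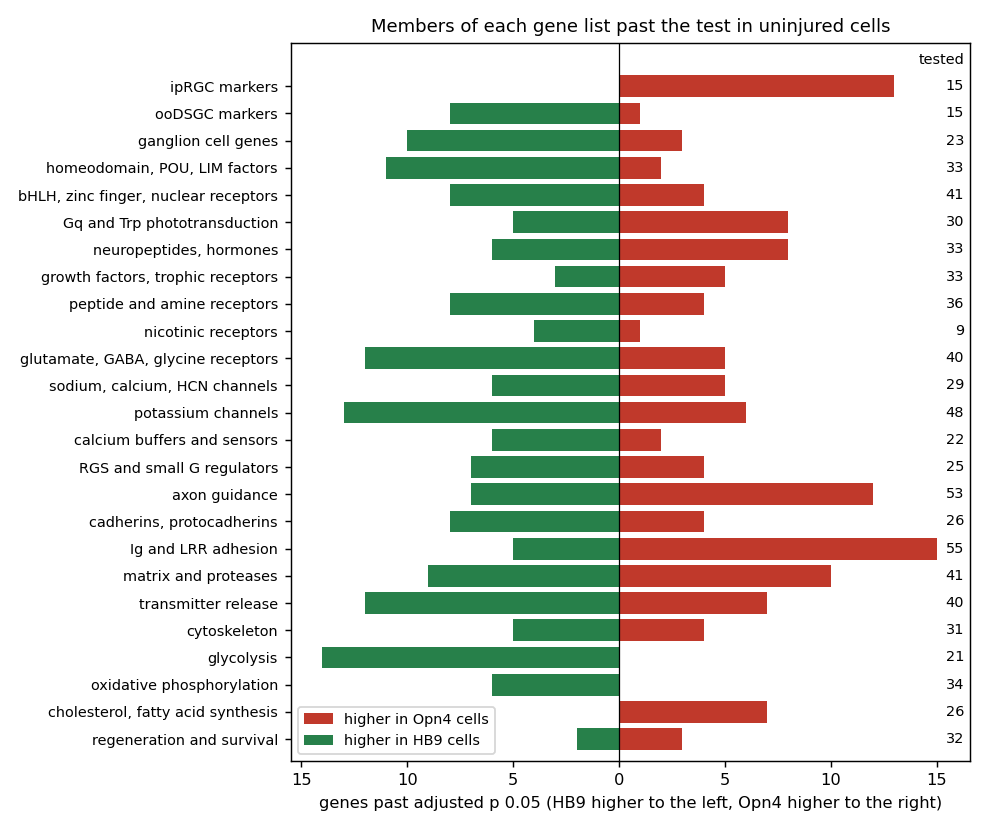
Number of tested members of each gene list past adjusted p 0.05, with genes higher in HB9 cells to the left and higher in Opn4 cells to the right, and the number tested at the right edge. Glycolysis has 14 genes on the HB9 side and none on the Opn4 side, and most other lists have both. Of all tested genes, 11.8% were past the threshold.

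General ganglion cell genes were expressed by both classes at different levels. Rbpms, an RNA-binding protein of all ganglion cells, was at 212, 183 and 198 RPKM in Opn4 cells and 226, 227 and 272 RPKM in HB9 cells (-0.29 ± 0.16, 95% interval -0.64 to 0.07, adjusted p = 0.311). Synuclein gamma (Sncg) was at 3070, 2303 and 3563 RPKM against 2524, 2820 and 2366 RPKM (0.19 ± 0.19, interval -0.21 to 0.60). For both genes the interval lay within 2-fold. Rbpms2, the paralog of Rbpms, was at 424, 366 and 405 RPKM in HB9 cells and 0, 11.3 and 13.1 RPKM in Opn4 cells (-6.16 ± 0.94, adjusted p = 0.000908). Neurofilaments were higher in HB9 cells: Nefl was at 3447, 3793 and 3338 RPKM against 1102, 1884 and 987 RPKM (-1.47 ± 0.20, adjusted p = 0.000347), and Nefm at 1304, 1462 and 1408 RPKM against 314, 524 and 293 RPKM. Thy1, a surface glycoprotein used to label ganglion cells, was at 137, 121 and 90.5 RPKM in HB9 cells and 54.1, 54.9 and 72.1 RPKM in Opn4 cells (-0.92 ± 0.22, adjusted p = 0.0148). The call for Thy1 ended with the rod covariate (0.175) and without HB9 replicate 1 (0.0694) or 2 (0.0609). Stathmin 1 (Stmn1), which destabilizes microtubules, was at 922, 672 and 938 RPKM in Opn4 cells and 265, 205 and 218 RPKM in HB9 cells (1.87 ± 0.22, adjusted p = 0.000121). Reads of Stmn1 may be shared with near-identical pseudogenes. Of 23 tested entries for ganglion cell genes, 3 were higher in Opn4 cells and 10 in HB9 cells, with 1 and 7 under the rod covariate. The share called was 56.5%, against 11.8% of all tested genes (median -0.33). Of 31 tested cytoskeletal genes, 4 and 5 were called (29%, against 11.8% of all tested genes; median 0.25). The counts were 2 and 5 without Opn4 replicate 1, 2 and 4 without Opn4 replicate 3 or HB9 replicate 1, and 2 and 3 without HB9 replicate 3. They were 7 and 5 without HB9 crush replicate 2, 9 and 6 without HB9 crush replicate 3, 9 and 5 with quantile normalization and 1 and 2 with the rod covariate.

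Several of the widest differences fell outside these groups. On the Opn4 side were Zcchc12, a zinc-knuckle protein (285, 231 and 320 RPKM against 4.79, 0.0178 and 0 RPKM), the antigen-presenting molecule Cd1d1 (113, 97.3 and 94.0 RPKM against 1.85, 1.37 and 0 RPKM) and the secreted glutathione peroxidase Gpx3 (387, 342 and 349 RPKM against 3.66, 7.59 and 3.00 RPKM). Baiap3, a regulator of dense-core vesicles, was at 131, 118 and 151 RPKM against 1.07, 1.18 and 0.797 RPKM. Enpp2, which makes lysophosphatidic acid, was at 99.7, 64.2 and 70.3 RPKM against 3.17, 0.713 and 0.0435 RPKM. Neuroglobin (Ngb) varied among Opn4 libraries, at 72.9, 12.3 and 134 RPKM, and had no read in HB9 cells. On the HB9 side were the pancreatic lipase gene Pnlip, at 37.8, 49.9 and 62.4 RPKM with no read in Opn4 cells, Tmem163 (272, 245 and 282 RPKM against 5.70, 10.1 and 5.37 RPKM), and the adenylate kinase Ak5 (-4.80 ± 0.56).

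Of 32 tested genes tied to regeneration and survival of injured ganglion cells, 3 were higher in Opn4 cells and 2 in HB9 cells, a share of 15.6% that is near the 11.8% of all tested genes (median 0.01 for both). Those higher in Opn4 cells included Igf1 and Klf6, described above. Jun, a transcription factor of the injury response, was at 10.9 to 11.3 RPKM in Opn4 cells and 18.6 to 30.8 RPKM in HB9 cells (-1.13 ± 0.21, adjusted p = 0.0036, with 0.0571 under the rod covariate and 0.0509 when the 6 libraries were fitted alone). Osteopontin (Spp1) varied widely within both classes, at 151, 33.7 and 0.593 RPKM against 547, 261 and 3.24 RPKM, and did not pass (adjusted p = 0.49). The list count was 2 and 1 without Opn4 replicate 3 or HB9 replicate 1, 3 and 1 without HB9 replicate 2 or HB9 crush replicate 1, 2 and 0 with the rod covariate, and 7 and 3 with library weights. Genes that respond to tissue dissociation were split as well, with Btg2 (3.12 ± 0.42, adjusted p = 0.0004) and Dusp1 (1.60 ± 0.27, adjusted p = 0.0018) higher in Opn4 cells and Ier3 (-1.98 ± 0.30, adjusted p = 0.000968) in HB9 cells. Over that list 4 of 16 were higher in Opn4 cells and 2 in HB9 cells (37.5% called, against 11.8% of all tested genes). Its mean per library overlapped between the classes (exact permutation p = 0.5, smallest possible 0.1).

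The same 2 classes were also sampled after optic nerve crush, in 6 libraries that share no sample with the sham libraries but share the model's estimate of spread. Of the 2148 genes called after sham, 1938 (90.2%) had the same sign after crush, and 921 were also called in that direction. That is 42.9% of the sham calls and 39.6% of the 2325 crush calls (12.7% of tested genes). Of the 153 genes over 16-fold apart after sham, 129 were called in the same direction after crush. The class difference after crush was 6.90 for Opn4, -4.93 for Cartpt, -3.90 for Calb2, 6.18 for Bmp7, 9.35 for Cd24a and -2.04 for Slc17a6. Calls in opposite directions were made for 13 genes. The sham and crush class differences themselves differed past the threshold for 149 genes (0.816%), 68 of them among the sham calls. Eomes was one: Opn4 cells held 384 ± 54.3 RPKM after sham and 220.5 ± 19.6 RPKM after crush, and HB9 cells 0.958 ± 0.866 and 8.08 ± 1.29 RPKM (SD, n = 3). The nicotinic pair was another, with Chrna6 at -7.67 after sham and -2.07 after crush and Chrnb3 at -6.98 and -2.06.

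**Figure D5:**
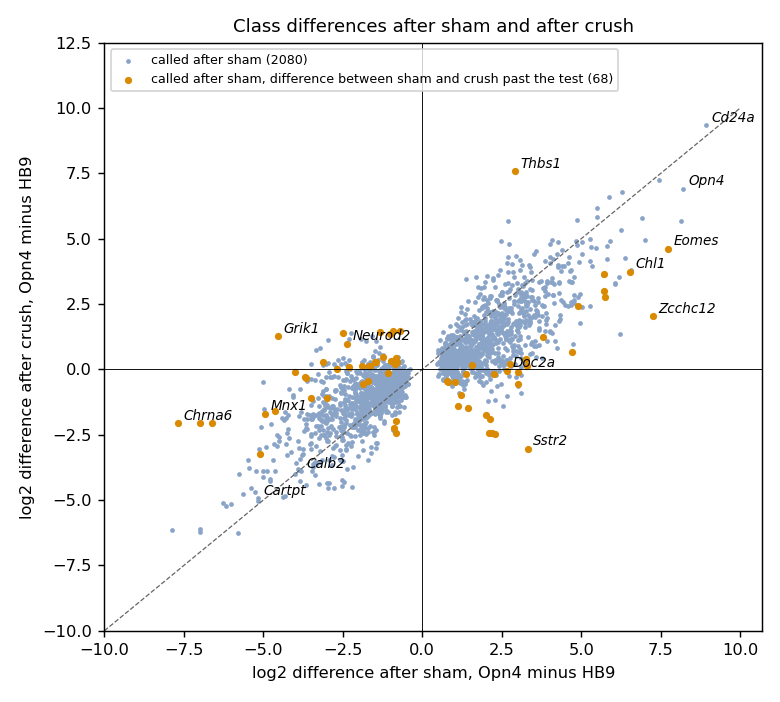
Log2 class difference (Opn4 minus HB9) after crush (vertical axis) against that after sham (horizontal axis) for the 2148 genes called after sham, with the 68 whose sham and crush differences differed past the threshold in orange and equality as a dashed line. Opn4 and Cd24a lie near the line, and Sstr2 and Grik1 lie across 0 from it.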

How the data were processed

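Messenger RNA from pools of hand-picked ganglion cells was sequenced in 12 libraries, 4 groups of 3. The authors deposited 1 table of RPKM values for 38887 genes. Per the submitters' processing notes, TopHat2 2.0.11, Bowtie and edgeR 3.14.0 were used with mm10; the counting method and annotation are not given in the sources used here. Dissociation used papain at 17 U/ml for 30 min at 37 °C, with picking within 2 h, per the labels' protocols.

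Values were analysed as log2(RPKM + 1), so fold changes of low genes are understated. Genes at 1 RPKM or more in at least 3 of the 12 libraries were tested (18269). limma 3.58.1 (R 4.3.3, Python 3.11.15, pandas 2.3.3) fitted 4 group means with a mean-variance trend and Benjamini-Hochberg adjustment over all tested genes, and the sham contrast was read from it. Reads recovered from the RPKM steps were whole for 100% of 28168 genes above 0, within 0.01 reads, and served for voom and for floors of 3 reads per group. Each gene's length was fitted to make its reads whole, so this share follows largely from the method. For genes with reads in few libraries, length and reads may be too low. Libraries are separate pools of animals per the labels' protocols, and intervals from reads cover counting error only. The fit was tested on simulated data in which 200 of 18269 genes were changed.

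Named genes were 8 set genes, the 30 largest differences in each direction without overlap, the 10 most abundant in each direction, and for each of 39 lists up to 4 called in each direction and 3 not called. Of 318 such genes, the text describes mainly those whose call held under all alternatives (139 of 210 called). Adcyap1 and Timp2 fall outside the rule and were chosen after their values were seen. The members and lists were chosen with earlier results of these data known. Alternatives changed the pseudocount, filter, libraries fitted, weights, scaling, replicate block, rod covariate, count model and left-out library.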

Additional observations from a re-analysis of the deposited data

Results flagged for a closer look

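For 18 of the named genes the class difference after sham differed from that after crush in the model's interaction term (limma, Benjamini-Hochberg over 18269 genes). Each value below is the sham log2 difference minus the crush one. Among genes with a positive value, Sstr2, a somatostatin receptor, had 6.35 (adjusted p = 0.036), Zcchc12 had 5.23 (0.00742), Eomes had 3.11 (0.00839) and Cd1d1 had 2.99 (0.0318). Smaller positive values were 2.8 for the adhesion gene Chl1 (0.046), 2.72 for Doc2a, a calcium sensor of vesicle release (0.0207), 2.7 for Sh3gl3, an endophilin (0.046), and 2.08 for the phosphatase Ptprm (0.0141).

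Negative values were found for the nicotinic subunits Chrna6 (-5.6, adjusted p = 0.00763) and Chrnb3 (-4.92, 0.0255) and the kainate receptor Grik1 (-5.8, 0.00742). The secreted proteins Thbs1 (-4.66, 0.00434) and Mmp9 (-4.59, 0.0318) were also in this group. So were the transcription factors Neurod2 (-3.33, 0.0173) and Mnx1 (-3.24, 0.0281), the receptor Sstr4 (-3.05, 0.0318), the G protein regulator Rgs4 (-2.39, 0.00191) and Tmem163 (-1.86, 0.0408). Mnx1 is the gene whose regulatory DNA drives the HB9 reporter.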

How the results depend on the processing

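The sham count of 2148 genes stayed within 1.5 times under other pseudocounts, filters, weights, scalings, a fit of the 6 libraries alone and voom (1725 to 2958). With the rod covariate it was 762 (369 higher in Opn4, 393 higher in HB9), and the crush count of 2325 became 857 (371 and 486). Median centring gave 913 higher and 1251 lower. Leaving out 1 library gave 1348 to 2353 sham calls (704 to 1159 higher, 633 to 1194 lower), 1356 to 2619 crush calls (576 to 1050 higher, 780 to 1569 lower) and 61 to 156 interaction calls (42 to 108 higher, 19 to 52 lower), the last against 149. The interaction count was 90 with a pseudocount of 0.1 (56 and 34), and its split of 96 and 53 became 75 and 73 with median centring and 93 and 78 with quantile normalization. Those scalings moved the median difference of all genes from 0.13 to -0.0062 and -0.0080 for the interaction.

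The replicate numbers do not pair the libraries: deviations of same-numbered libraries correlated between -0.02 and 0.03. With the number as a replicate block, 2000 sham genes were called (1916 shared) and 98 interaction genes (63 and 35).

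Class differences in marker means moved with a pseudocount of 0.1 and with the median of the markers: 0.22 and 0.56 for horizontal cells, 0.69 and 0.0344 for vessels, -1.60 and -0.0800 for erythrocytes. The leading component held 63.1% of the variance of the 2000 most variable genes. Among genes that were not called, Plcb4 changed sign with median centring (-0.0591) and without 1 library (-0.16 to 0.31), and Isl1 without 1 library (-0.18 to 0.31). The cause was not tested. RPKM steps limit genes near 0, where 1 read sets the value.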
